A study of Mus musculus with 16 samples.

Results

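Finasteride was compared with vehicle in the prostates of mice homozygous mutant (-/-) for 1 gene, across all genes expressed well enough to test. The 8 libraries of this comparison, 3 from mutant mice on vehicle and 5 from mutant mice on finasteride, are 8 of the 16 in the series, and the 16506 genes with a mean log2 expression of at least 3.32 over all 16 libraries were tested, of 29535 in the table. The other 8 libraries, 3 from wild-type (+/+) mice on vehicle and 5 from wild-type mice on finasteride, are used for the spread and to set the wild-type response beside that of the mutant. All mice were 12 months old and of a hybrid strain of 129/SvImJ and C57Bl/6J, and the tissue is named only as prostate, with no lobe, dose or length of treatment given in the sources used here. Expression was measured by sequencing of poly-A RNA from whole tissue.

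Finasteride blocks the 5-alpha-reductases, the enzymes that turn testosterone into dihydrotestosterone, the stronger androgen. In the prostate androgens act in luminal epithelial cells, where they drive large amounts of a few secreted proteins, and in the stroma, which supports the epithelium. When androgen action is withdrawn, secretion drops, luminal cells are lost, and markers of stress, of proximal luminal cells and of inflammation are known to go up.

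Levels below are deposited normalized log2 values, which are not per gene length and so are compared only within a gene. Changes are log2 fold changes of finasteride over vehicle ± SE (n = 5 and 3), with p-values from limma adjusted over all tested genes by Benjamini and Hochberg. The values appear to be on a shrunken log scale, on which changes of weakly expressed genes would look too small, and read depth is unknown. Whether each library came from an animal of its own is not in the labels, so a p-value speaks only of the spread among these samples. In whole tissue, fewer cells of a type and less RNA per cell cannot be told apart, which holds for every result below.

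Taken out of log2, the values of the finasteride libraries summed to log2 totals of 24.07 to 24.16, below the 24.31 to 24.55 of the other 11. On the first principal component, with 50.7% of the variance, the finasteride libraries lay at -85.02 to -37.52, library 2 being the highest, and the mutant vehicle libraries at 24.56 to 26.69. Of the 16 libraries, 5 were close to a weighted mean of a pair from their own group, among them vehicle library 3 (weights of 0.5 and 0.5 of libraries 1 and 2) and finasteride libraries 3 (0.64 of library 1 and 0.36 of library 5) and 4 (0.7 of library 1 and 0.3 of library 2). Each comparison was therefore repeated on the other 11 libraries, and a gene said below to have risen or fallen passed the test there too unless its value over 11 libraries is given. Finasteride library 5, kept among these 11, was near a mean of 0.27 of library 2 and 0.73 of library 3. Its residual SD of 0.12 was just over the limit of 0.1 set for a mixture, and a fit on 10 libraries without it is given below. Finasteride library 2 stood apart in RNA of neighbouring organs. The summed level of 16 seminal vesicle secretion genes was 16.67 to 17.96 on vehicle, 20.50 to 21.54 in finasteride libraries 1, 3, 4 and 5, and 16.71 in library 2. That of 17 genes of the epididymis and vas deferens was 6.44 to 7.86, 14.79 to 15.87 and 9.10 in the same order, although 12 of the 17, including Lcn5, Lcn8 and Gpx5, were too low to be tested. That of 20 nerve and glial genes was 10.88 to 11.24, 13.24 to 14.27 and 11.23. Where a result moves with these lists, the value in library 2 is given beside it.

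**Figure D1:**
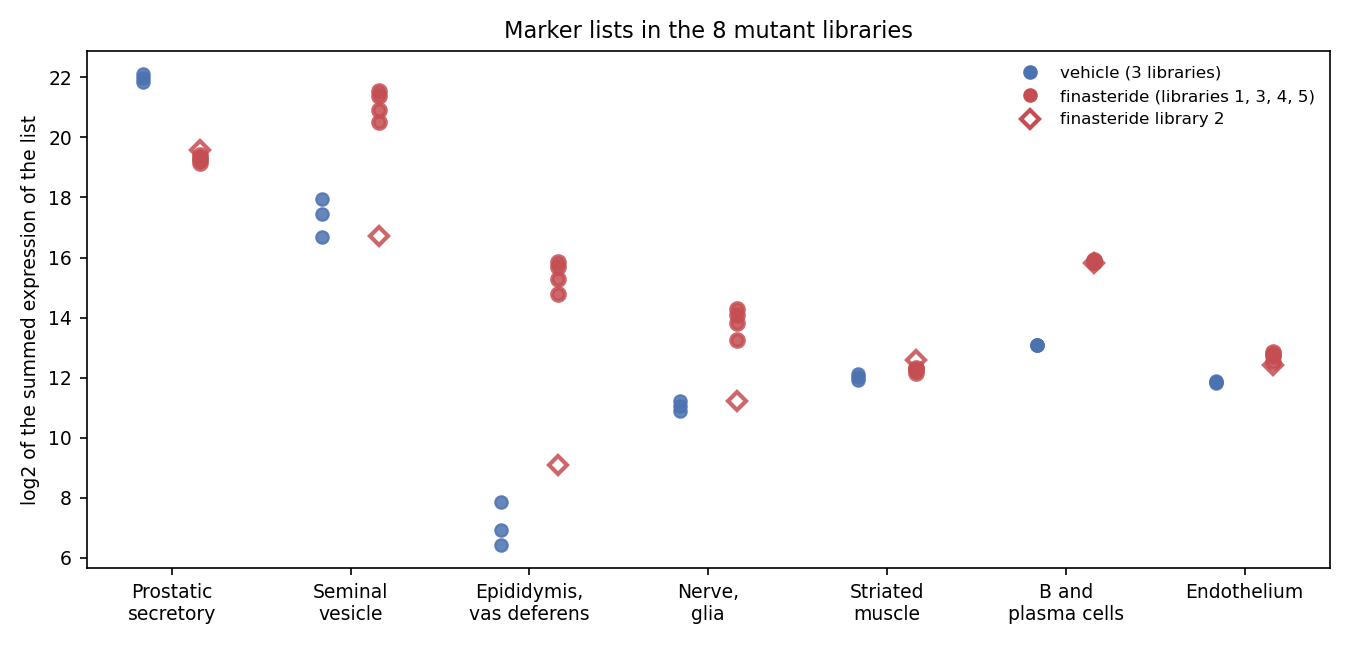
Each point is the log2 of the summed expression of a marker list (y axis) in 1 mutant library, for 7 lists (x axis); blue points are vehicle, red points finasteride and the open diamond finasteride library 2. Seminal vesicle, epididymis and nerve lists were high in finasteride libraries 1, 3, 4 and 5 and lower in library 2, while the prostatic secretory list was lower and the B and plasma cell list, which includes the epithelial transporter Pigr, higher in all 5 finasteride libraries than on vehicle.

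Finasteride was followed by a broad shift in expression. Of the 16506 genes, 7996 passed the threshold of 0.05 (48.4%), 4236 higher (25.7%) and 3760 lower (22.8%), and 2496 of them differed by more than 1 log2 unit. For 8189 genes (49.6%) the 3 vehicle and 5 finasteride libraries did not overlap. Over 11 libraries 3340 genes passed (20.2%), 1814 higher (11%) and 1526 lower (9.25%), of which 3337 were called in the same direction over 16. The split depended on scaling, since higher genes made up 53% of calls on the deposited values, 40.8% after quantile normalization and 39.1% after median centring, which put the median of all genes at -0.14 in place of -0.01. For 10 of the 50 gene lists described below the median or the balance of rises and falls turned under at least 1 of these scalings, and these lists are called mixed. Finasteride library 2 set alone against the 3 vehicle libraries still gave 4502 calls, with 41.2% of them higher.

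Among the enzymes that finasteride targets, the main prostatic form was higher on the drug. Srd5a2, the 5-alpha-reductase of the prostate that finasteride inhibits most strongly, was at 6.53, 6.43 and 6.52 on vehicle and 7.53, 6.91, 7.42, 7.47 and 7.36 on finasteride. It was higher in every finasteride library, least so in library 2, and rose by 0.85 ± 0.20, adjusted p = 0.00285, although over 11 libraries it did not pass (0.79, adjusted p = 0.0917). Srd5a1, the other main form of the enzyme, was at 6.57 to 6.68 on vehicle and 6.88 to 7.16 on finasteride, a change of 0.34 ± 0.13, adjusted p = 0.0334. That call was lost over 11 libraries (adjusted p = 0.19), without finasteride library 5 (0.29, adjusted p = 0.0752) and without vehicle libraries 1, 2 or 3 (adjusted p = 0.095, 0.054 and 0.0989), and its direction turned after quantile normalization (-0.12). Srd5a3, which acts mainly in protein glycosylation, overlapped between the groups (-0.06 ± 0.09, adjusted p = 0.622).

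Androgen-driven secretory proteins included genes that fell steeply and genes that rose. Pbsn encodes probasin, the best known androgen target of the mouse prostate. Its log2 level was 15.66, 15.73 and 15.69 on vehicle and 11.46, 10.35, 11.39, 11.13 and 11.09 on finasteride. Every finasteride library lay far below every vehicle library, library 2 lowest, and the change was -4.61 ± 0.22, adjusted p = 1.65e-09, or 24.4-fold lower. The 250 bases before the Pbsn start are shown because this promoter is the classic androgen-responsive one (RefSeq, GRCm38.p6, chrX:77853501-77853750, minus strand). Capitals mark the only match to AGAACA, a half-site of the androgen response element, on either strand.
Pbsn: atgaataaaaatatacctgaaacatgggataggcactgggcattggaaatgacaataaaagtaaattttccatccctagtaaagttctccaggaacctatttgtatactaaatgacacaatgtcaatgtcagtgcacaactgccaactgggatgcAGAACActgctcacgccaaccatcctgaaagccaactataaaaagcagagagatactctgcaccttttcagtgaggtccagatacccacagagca
A match to these 6 letters is common, and whether the androgen receptor binds at the marked one was not tested. Among the 11315 tested genes with a promoter entry 10.9% held one, against 5 of 15 secretory genes (33.3%). Of these 5, 0 rose and 3 fell, and of the 10 without a match 5 rose and 3 fell. Among all 1237 tested genes with a match 351 rose and 247 fell, so nothing is read from the contrast of 5 and 10 genes.

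Other abundant secretory products fell with Pbsn. Tgm4, the transglutaminase that clots semen, was at 18.80, 19.14 and 18.99 on vehicle and 15.62, 17.00, 16.05, 16.16 and 16.54 on finasteride, and fell by 2.70 ± 0.33, adjusted p = 1.19e-05. The groups did not overlap, with library 2 the highest of the finasteride libraries. Gsdma, a gasdermin, fell by 2.35 ± 0.28, adjusted p = 8.72e-06, and 9530002B09Rik, a gene without an assigned name, fell by 1.59 ± 0.16, adjusted p = 1.69e-06. Pnliprp1, a lipase-related secreted protein, went from 10.60 to 10.89 to 5.09 to 6.99 (-4.58 ± 0.70, adjusted p = 9.53e-05). Msmb, a beta-microseminoprotein, went the other way. It was at 9.90, 9.29 and 9.58 on vehicle and 12.89, 13.06, 13.04, 12.90 and 13.05 on finasteride, all 5 finasteride libraries being high, and rose by 3.40 ± 0.67, adjusted p = 7.44e-04. Sbp, the spermine-binding protein known as a product of the ventral lobe, was at 8.98, 8.39 and 6.02 on vehicle and 16.61, 15.91, 16.59, 16.36 and 16.22 on finasteride (8.54 ± 1.86, adjusted p = 0.00159; over 11 libraries adjusted p = 0.0663). Again no library overlapped, and library 2 was nearly as high as the rest. Of the whole list 7 of 23 tested members rose (30.4%) and 7 fell (30.4%), and over 11 libraries 3 and 5. Its members include Crisp1, which is also on the epididymal list, Pate4, on the seminal vesicle list, and Mmp7, on that of matrix metalloproteases. Both shares were near the 25.7% and 22.8% of all tested genes, so nothing is read from these counts. The secretory list had a median log2 fold change of 0.35, beside -0.01 over all tested genes. The summed level of its 26 genes was 21.86 to 22.10 on vehicle and 19.14 to 19.59 on finasteride, without overlap.

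Androgen-induced cellular genes were mixed. Fkbp5, a chaperone of steroid receptors that androgens induce, was at 11.27, 11.73 and 11.54 on vehicle and 12.89, 13.32, 12.97, 13.00 and 13.07 on finasteride. It was higher in all 5 finasteride libraries, most in library 2, and rose by 1.54 ± 0.30, adjusted p = 6.45e-04. Aldh1a3, which makes retinoic acid, rose by 1.67 ± 0.17, adjusted p = 2.10e-06. Sord, sorbitol dehydrogenase, was at 12.70 to 12.72 on vehicle and 10.78 to 11.15 on finasteride and fell by 1.68 ± 0.14, adjusted p = 3.66e-07. Also lower were Tmprss2, a luminal protease (-0.85 ± 0.08, adjusted p = 1.05e-06), Tpd52, a vesicle protein (-0.78 ± 0.07, adjusted p = 1.36e-06), Acsl3, an acyl-CoA synthetase (-2.19 ± 0.24, adjusted p = 4.37e-06), and Spdef, a luminal transcription factor (-0.89 ± 0.10, adjusted p = 4.29e-06). In this list 11 of 34 tested members rose and 14 fell (median log2 fold change -0.06, over 11 libraries 6 and 10). Among genes known to go up after androgen withdrawal 15 of 21 tested members rose and 2 fell (median log2 fold change 1.02, over 11 libraries 11 and 0). Clu, the secreted chaperone clusterin, was at 14.78, 14.99 and 14.87 on vehicle and 16.48, 16.22, 16.41, 16.37 and 16.20 on finasteride. Every finasteride library was higher, and Clu rose by 1.46 ± 0.16, adjusted p = 5.13e-06.

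Of steroid receptors and cofactors 0 of 12 tested members rose and 7 fell (median log2 fold change -0.36, over 11 libraries 0 and 3). Esr1, oestrogen receptor alpha, was at 11.02, 11.02 and 11.04 on vehicle and 9.61, 10.26, 9.74, 9.86 and 10.19 on finasteride, with no overlap, and fell by 1.09 ± 0.12, adjusted p = 5.27e-06. Nr3c2, the mineralocorticoid receptor, fell by 0.83 ± 0.12, adjusted p = 4.29e-05 and Ncoa1, a shared coactivator, fell by 0.68 ± 0.10, adjusted p = 6.65e-05. Of steroid-converting enzymes 9 of 19 tested members rose and 2 fell (median log2 fold change 0.26, over 11 libraries 5 and 1). Sult1e1, the oestrogen sulfotransferase, was at 6.93 to 7.01 on vehicle and 8.23 to 9.22 on finasteride and rose by 1.89 ± 0.17, adjusted p = 8.25e-07. Akr1c12 and Akr1c13, aldo-keto reductases of a closely related cluster whose reads may be hard to assign, rose by 1.47 ± 0.16, adjusted p = 4.25e-06 and 1.39 ± 0.21, adjusted p = 9.22e-05.

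**Figure D2:**
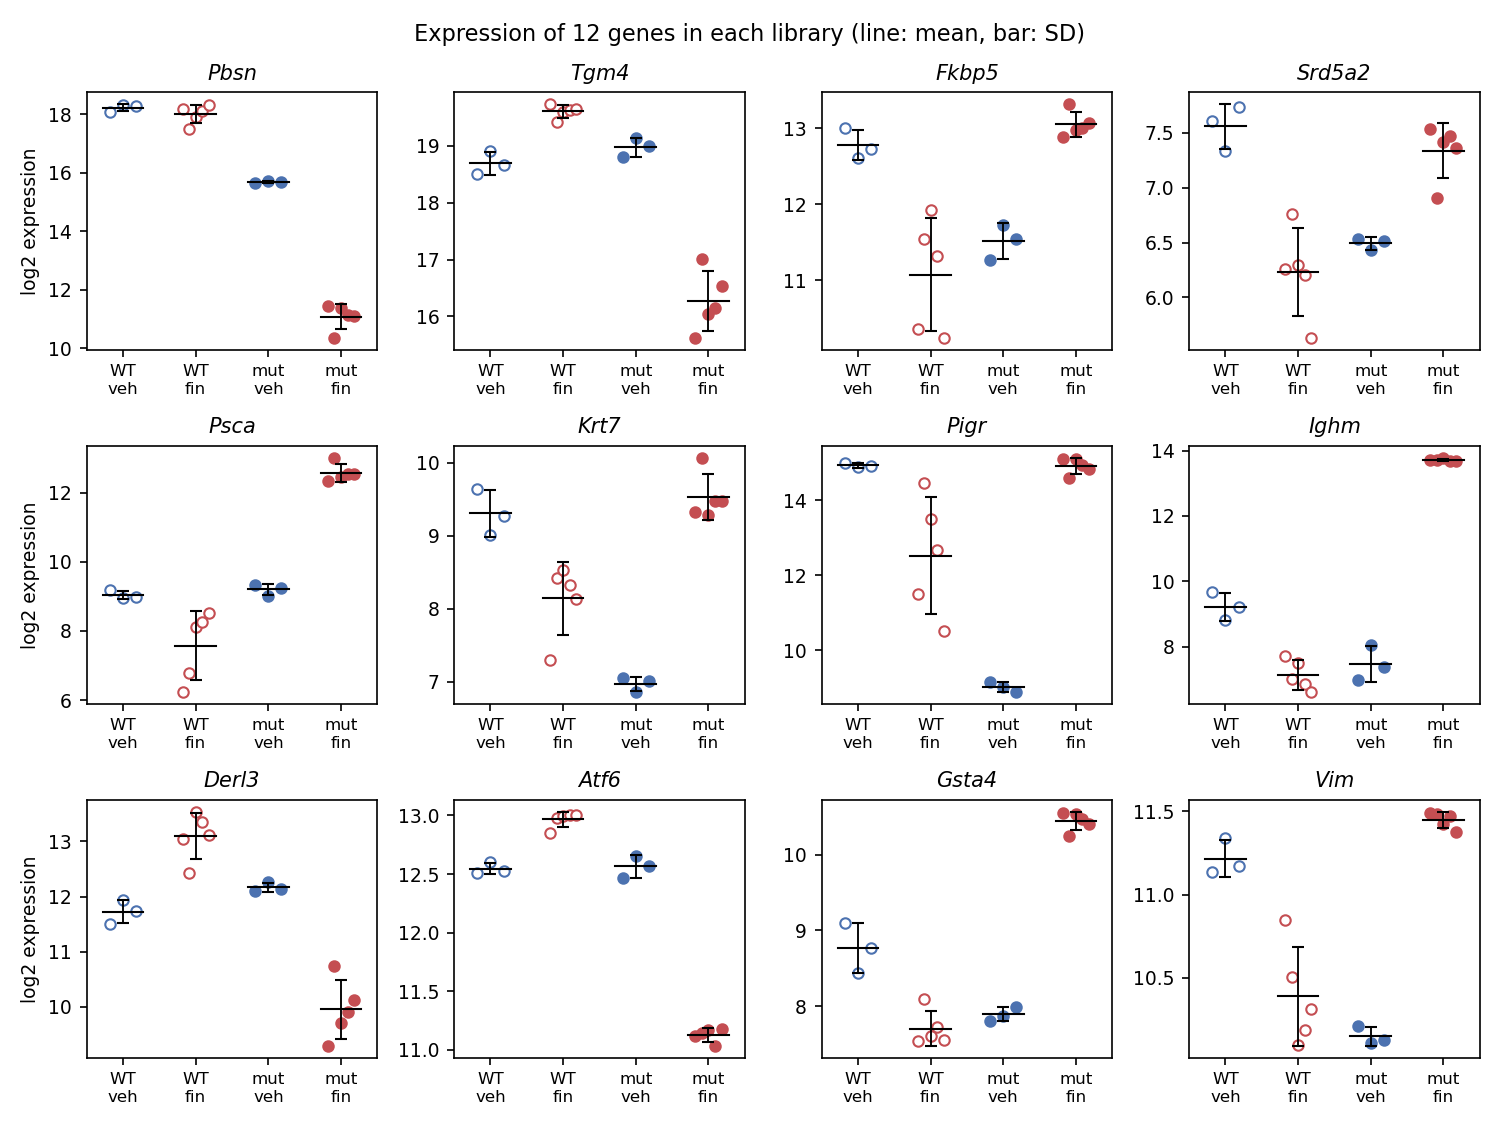
Log2 expression (y axis) of 12 genes in each library of the 4 groups (WT, wild type; mut, mutant; veh, vehicle; fin, finasteride), with the group mean as a line and the SD as a bar. Among the mutant libraries each of the 12 genes separated finasteride from vehicle without overlap, Pbsn by -4.61 and Ighm by 6.24 in log2.

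Among the steepest falls of well expressed genes were those of Fut9 and Atp12a. Fut9, a fucosyltransferase, was at 12.15, 11.94 and 12.06 on vehicle and 6.99, 8.10, 7.22, 7.53 and 7.95 on finasteride, with no overlap (-4.49 ± 0.33, adjusted p = 1.20e-07). Gad2, which makes GABA, went from 13.43 to 13.70 to 8.45 to 10.003 (-4.32 ± 0.74, adjusted p = 2.25e-04), and C1rb, a complement protease, from 15.19 to 15.35 to 10.63 to 12.49 (-3.67 ± 0.42, adjusted p = 6.39e-06). In these 3 genes finasteride library 2 was the least reduced of the 5. Atp12a, a proton and potassium pump, was at 13.14, 13.46 and 13.29 and 9.65, 10.24, 9.85, 9.90 and 10.10, which is 10.2-fold lower with little spread (-3.35 ± 0.12, adjusted p = 1.01e-10). Slc18a1, a vesicular monoamine transporter, fell by 3.24 ± 0.16, adjusted p = 1.61e-09 and Pgm2l1, a sugar phosphate enzyme, fell by 3.33 ± 0.17, adjusted p = 1.83e-09. Lct, lactase, was uneven on vehicle at 8.41, 10.89 and 10.21 and lower in every finasteride library at 6.27, 5.37, 6.25, 6.14 and 6.06 (-3.82 ± 0.39, adjusted p = 2.75e-06). Mcoln3, a lysosomal channel, fell by 3.73 ± 0.35, adjusted p = 1.21e-06 and Gsdma3, another gasdermin, fell by 3.20 ± 0.22, adjusted p = 5.72e-08.

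Among the steepest rises were those of Scgb2b7, Mug1 and Slc5a8, which were low on vehicle. Scgb2b7 and Scgb2b20, secretoglobins of the androgen-binding protein family with many similar copies, were at 1.78, 4.35 and 3.02 and at 2.25, 2.16 and 2.24 on vehicle. On finasteride they were at 12.27, 8.95, 12.66, 11.68 and 11.33 and at 10.68, 7.05, 10.18, 10.002 and 9.71. All finasteride libraries were higher, library 2 clearly the lowest of them, and the changes were 8.32 ± 1.40, adjusted p = 2.03e-04 and 7.31 ± 1.34, adjusted p = 4.09e-04. Mug1, murinoglobulin, a protease inhibitor, went from 3.18 to 4.45 to 10.82 to 11.88 (7.75 ± 1.54, adjusted p = 7.82e-04), and Slc5a8, a monocarboxylate transporter, from 2.42 to 3.04 to 8.42 to 9.13 (6.17 ± 1.05, adjusted p = 2.25e-04). Library 2 was the lowest of the finasteride libraries for both and far above every vehicle library. Adam7, a membrane protein known from the epididymis, rose by 6.96 ± 1.03, adjusted p = 6.85e-05 and was at 8.32 in library 2. Atp13a4, a cation transporter, was at 3.48, 4.88 and 4.57 on vehicle and 9.37, 10.59, 9.71, 9.81 and 10.24 on finasteride. Here library 2 was the highest of the 5, and the rise was 5.63 ± 0.44, adjusted p = 1.72e-07.

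The summed levels of neighbouring organ genes were high in finasteride libraries 1, 3, 4 and 5 and much lower in library 2, where that of epididymal genes was still above vehicle. Svs2, a semenogelin-like seminal vesicle protein, was at 11.31, 13.31 and 12.18 on vehicle and 21.17, 11.52, 21.00, 20.49 and 20.06 on finasteride. Library 2 lay within the vehicle range and the other 4 far above it, so that the change of 6.58 ± 2.34, adjusted p = 0.0297 was 5.27 with adjusted p = 0.273 over 11 libraries and -0.75 in library 2 alone; it was lost without any 1 of the vehicle libraries or of finasteride libraries 1, 3, 4 and 5 (6.00 to 7.10, adjusted p = 0.0547 to 0.0919). Crisp1, an epididymal sperm-coating protein, showed the same layout at 1.98, 5.42 and 3.66 and 14.30, 4.54, 14.07, 13.69 and 13.27 (8.29 ± 2.50, adjusted p = 0.0129; over 11 libraries adjusted p = 0.179, and without vehicle library 1 7.43, adjusted p = 0.0564). In seminal vesicle genes 6 of 13 tested members rose and 0 fell (median log2 fold change 1.65, over 11 libraries 2 and 0), and in epididymal genes 5 of 5 tested members rose and 0 fell (median log2 fold change 6.96, over 11 libraries 1 and 0). In library 2 alone the seminal vesicle list had 2 risen, 0 fallen and a median of -0.39. Pax2 and Pax8, transcription factors of the Wolffian duct, followed the same libraries, at 9.26, 2.80, 8.93, 8.83 and 7.90 and at 8.94, 2.22, 8.51, 8.23 and 7.62 on finasteride against at most 2.84 on vehicle (over 11 libraries adjusted p = 0.209 and 0.202; changes over 16 of 5.40 and 5.80).

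Markers of proximal luminal cells, the castration-resistant cells nearest the urethra, rose nearly as a whole. In that list 15 of 16 tested members rose and 0 fell (median log2 fold change 2.31, over 11 libraries 11 and 0). Psca, a surface antigen of these cells, was at 9.33, 9.02 and 9.25 on vehicle and 12.33, 13.01, 12.45, 12.54 and 12.52 on finasteride. Every finasteride library was high, library 2 highest, and Psca rose by 3.37 ± 0.39, adjusted p = 8.14e-06, or 10.3-fold. Krt7, a keratin of ductal epithelium, went from 6.86 to 7.05 to 9.28 to 10.07 (2.55 ± 0.24, adjusted p = 1.18e-06). Ppp1r1b, a phosphatase inhibitor, rose by 3.18 ± 0.23, adjusted p = 1.03e-07 and Ly6a, the surface antigen Sca-1, by 1.90 ± 0.11, adjusted p = 9.21e-09. The summed proximal luminal level was 15.94 to 15.98 on vehicle and 17.50 to 17.65 on finasteride, highest in library 2. Those of the seminal vesicle, epididymis and nerve lists were lowest in library 2 among the finasteride libraries. The epididymal sum of 9.10 there was still above the 6.44 to 7.86 on vehicle. Whether proximal luminal markers are also expressed in neighbouring ducts was not tested, nor was the source of their rise.

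Luminal and basal markers were mixed, 5 luminal markers rising and 5 falling of 17 tested (over 11 libraries 4 and 3), and 6 basal markers rising and 4 falling of 18 (3 and 3). Of the luminal markers, Dpp4, the surface peptidase CD26, fell from 12.22 to 12.40 to 11.07 to 11.42 (-1.09 ± 0.08, adjusted p = 1.65e-07) and Prom1 fell by 0.68 ± 0.08, adjusted p = 8.72e-06. Cdh1, E-cadherin, was at 12.55, 12.64 and 12.61 on vehicle and 13.12, 13.05, 13.17, 13.12 and 13.12 on finasteride, a small rise without overlap (0.52 ± 0.07, adjusted p = 1.77e-05), and Tspan8 rose by 1.67 ± 0.26, adjusted p = 1.20e-04. Among basal genes, Lama3, a laminin chain, fell by 2.11 ± 0.18, adjusted p = 3.39e-07, whereas the laminin receptors rose, Itgb4 (0.78 ± 0.07, adjusted p = 1.16e-06) and Bcam (0.996 ± 0.10, adjusted p = 2.06e-06). Of prostate epithelial transcription factors, also mixed, 6 of 24 tested members rose and 9 fell (median log2 fold change 0.01, over 11 libraries 3 and 5). Ehf, an ETS factor, fell from 14.72 to 14.85 to 13.25 to 13.62 (-1.30 ± 0.10, adjusted p = 1.33e-07), Gata3 fell by 0.77 ± 0.13, adjusted p = 1.71e-04 and Tbx3 fell by 0.68 ± 0.11, adjusted p = 1.50e-04, while Elf3 rose by 0.57 ± 0.09, adjusted p = 1.70e-04. Hoxb13, which marks the prostate lineage, was at 12.61, 12.75 and 12.65 on vehicle and 11.80, 12.57, 11.91, 12.13 and 12.13 on finasteride, so it was well expressed in all 8 libraries (-0.56 ± 0.14, adjusted p = 0.00343; over 11 libraries adjusted p = 0.103).

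Immune gene lists leaned upward on finasteride. B and plasma cell genes stood out, in that 16 of 18 tested members rose and 0 fell (median log2 fold change 3.14, over 11 libraries 15 and 0). Ighm, the heavy chain of IgM, was at 6.98, 8.06 and 7.37 on vehicle and 13.72, 13.71, 13.78, 13.68 and 13.68 on finasteride. The 5 finasteride libraries were close together and far above vehicle, a rise of 6.24 ± 0.25, adjusted p = 2.61e-10. Igkc, the kappa light chain, was at 5.14, 6.60 and 5.72 on vehicle and 12.58, 13.66, 12.89, 12.88 and 13.20 on finasteride (7.22 ± 0.42, adjusted p = 1.04e-08), with library 2 the highest. Igj, the joining chain of secreted IgM and IgA, rose by 6.19 ± 0.27, adjusted p = 4.23e-10 and Igha, the heavy chain of IgA, by 5.82 ± 0.69, adjusted p = 9.01e-06. Igha was more uneven, from 9.75 in library 1 to 13.06 in library 2. The B cell surface protein Ms4a1 was at 2.91 to 3.70 on vehicle and at 5.91 to 6.46 on finasteride, and rose by 2.81 ± 0.20, adjusted p = 6.45e-08. Pou2af1, a B cell coactivator, rose by 3.45 ± 0.21, adjusted p = 1.70e-08. Pigr, the epithelial receptor that carries IgA and IgM into secretions, was at 9.16, 9.004 and 8.89 on vehicle and 15.12, 14.59, 15.11, 14.96 and 14.85 on finasteride, 60-fold higher (5.91 ± 0.60, adjusted p = 2.12e-06). In library 2 alone 14 of the 18 B and plasma cell genes passed as risen and 0 as fallen.

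T cell, macrophage and antigen presentation genes rose too. Of T and NK cell genes 17 of 26 tested members rose and 0 fell (median log2 fold change 1.09, over 11 libraries 12 and 0), and after quantile normalization 9 rose and 2 fell. Cd8a was at 6.04, 5.51 and 5.81 on vehicle and 7.38, 8.01, 7.43, 7.59 and 7.84 on finasteride, without overlap and with library 2 highest (1.86 ± 0.28, adjusted p = 7.48e-05). Cd8b1, its partner chain, rose by 2.31 ± 0.26, adjusted p = 6.81e-06 and Cd6, a T cell surface receptor, by 2.35 ± 0.33, adjusted p = 4.67e-05. For macrophage and dendritic cell genes 24 of 27 tested members rose and 1 fell (median log2 fold change 1.10, over 11 libraries 20 and 1). C1qc, a complement subunit made by tissue macrophages, was at 8.22, 8.13 and 8.11 on vehicle and 9.43, 10.03, 9.29, 9.55 and 9.40 on finasteride, all 5 of these higher (1.39 ± 0.16, adjusted p = 6.31e-06). Arg1, arginase of alternatively activated macrophages, rose by 2.83 ± 0.32, adjusted p = 6.14e-06, Ms4a7 by 1.66 ± 0.13, adjusted p = 2.76e-07 and the lectin Clec10a by 1.56 ± 0.17, adjusted p = 5.20e-06. Of 10 MHC class II presentation genes all 10 rose (median 1.24; 9 over 11 libraries). H2-Aa was at 10.04 to 10.25 on vehicle and 11.29 to 11.72 on finasteride (1.32 ± 0.17, adjusted p = 2.00e-05), H2-Eb1 at 9.87 to 10.15 and 11.10 to 11.68 (1.29 ± 0.19, adjusted p = 5.79e-05), and Ctss, the protease that trims the invariant chain, rose by 1.72 ± 0.19, adjusted p = 4.49e-06. Of class I presentation genes 13 of 17 tested members rose and 2 fell (median log2 fold change 0.56, over 11 libraries 8 and 2). Members of the H2-Q group, near-identical copies whose reads may be misassigned, moved apart, H2-Q6 rising by 1.82 and H2-Q2 falling by 0.90, while Psmb9, an immunoproteasome subunit, rose by 1.03 ± 0.15, adjusted p = 5.28e-05.

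Cytokines, chemokines and their receptors followed, 28 of 35 tested rising and 0 falling (median 1.15, over 11 libraries 22 and 0). Cxcl13, the chemokine that draws B cells, was at 4.88, 4.75 and 4.64 on vehicle and 7.30, 7.52, 7.17, 7.40 and 7.70 on finasteride. The 5 finasteride libraries were evenly high (2.66 ± 0.20, adjusted p = 1.09e-07). Cxcl17, a mucosal chemokine, went from 3.23 to 3.43 to 6.71 to 8.79 (4.44 ± 0.48, adjusted p = 3.89e-06), Ccl8 rose by 3.07 ± 0.34, adjusted p = 5.54e-06 and Ccl9 by 2.09 ± 0.24, adjusted p = 6.28e-06. Mucosal defence products joined them, in that 11 of 16 tested members rose and 2 fell (median log2 fold change 2.16, over 11 libraries 9 and 2). Ltf, lactoferrin, was at 2.38, 3.31 and 2.23 on vehicle and 8.16, 9.72, 8.59, 8.92 and 9.23 on finasteride, a rise of 6.29 ± 0.53, adjusted p = 3.66e-07 that was largest in library 2. Lcn2, an iron-binding lipocalin, rose by 3.30 ± 0.18, adjusted p = 4.09e-09, and Tff3, a goblet trefoil peptide, by 4.87 ± 0.30, adjusted p = 1.74e-08. Slpi, an antiprotease that is also on the seminal vesicle list, rose by 3.87 ± 0.48, adjusted p = 1.55e-05. In library 2 alone the median of the mucosal list was 1.24. Fcgbp, a mucus protein, fell by 2.35 ± 0.21, adjusted p = 8.70e-07. In the neutrophil and mast cell list 5 of 8 tested members rose and 0 fell (median log2 fold change 1.02, over 11 libraries 3 and 0), with Csf3r, the neutrophil growth factor receptor, at 1.15 ± 0.24, adjusted p = 0.00108, a call that was lost after quantile normalization. Spink5, an epithelial protease inhibitor, was at 6.53 to 7.66 on vehicle and 13.85 to 14.44 on finasteride (7.16 ± 1.75, adjusted p = 0.00346; over 11 libraries adjusted p = 0.074).

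Interferon response genes rose in part, 15 of 28 tested against 2 that fell (median 0.59, over 11 libraries 6 and 1). Isg15, a ubiquitin-like modifier, was at 6.02, 6.41 and 6.03 on vehicle and 7.19, 7.47, 7.27, 7.23 and 7.19 on finasteride, with no overlap (1.11 ± 0.17, adjusted p = 1.05e-04). Ifit3, an antiviral RNA-binding protein, was at 6.50, 7.10 and 6.77 and 8.26, 7.66, 8.33, 8.10 and 8.11, library 2 the lowest on finasteride (1.30 ± 0.20, adjusted p = 9.28e-05), and Oas3, which makes the activator of RNase L, rose by 1.58 ± 0.24, adjusted p = 8.82e-05. Mx1, an antiviral GTPase, fell by 2.25 ± 0.20, adjusted p = 6.21e-07. The promoters of Isg15 (GRCm38.p6, chr4:156200819-156201068, minus strand) and Ifit3 (chr19:34583279-34583528, plus strand) are given from RefSeq because both rose and both hold the letters to which interferon-activated factors bind. Capitals mark matches to GAAANNGAAA or its reverse complement TTTCNNTTTC.
Isg15: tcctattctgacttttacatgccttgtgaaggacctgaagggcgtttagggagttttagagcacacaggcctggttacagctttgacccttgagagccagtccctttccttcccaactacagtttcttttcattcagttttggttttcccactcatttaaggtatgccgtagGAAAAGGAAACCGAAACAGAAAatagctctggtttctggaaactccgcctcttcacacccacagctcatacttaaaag
Ifit3: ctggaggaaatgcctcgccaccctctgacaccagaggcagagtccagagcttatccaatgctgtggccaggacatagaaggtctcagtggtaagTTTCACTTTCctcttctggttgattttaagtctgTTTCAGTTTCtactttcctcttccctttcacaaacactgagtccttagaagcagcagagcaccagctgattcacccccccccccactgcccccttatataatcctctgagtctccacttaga
Isg15 held 3 overlapping matches and Ifit3 held 2 on the minus strand. Of the 21 interferon genes with a promoter entry, 11 held a match (52.4%), against 301 of 11315 tested genes (2.66%). Of these 11, 8 rose and 1 fell, and of the 10 without a match 4 rose and 0 fell. Among all 301, 105 rose and 53 fell.

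Genes of protein folding in the endoplasmic reticulum (ER), which secretory cells need in proportion to what they export, fell together. In that list 2 of 35 tested members rose and 28 fell (median log2 fold change -0.64, over 11 libraries 1 and 15), against 22.8% of all tested genes that fell. Atf6, a membrane-bound sensor of unfolded protein, was at 12.47, 12.66 and 12.57 on vehicle and 11.12, 11.14, 11.17, 11.03 and 11.18 on finasteride. The 5 finasteride libraries were close together and all below vehicle (-1.44 ± 0.06, adjusted p = 4.23e-10). Ern1, the sensor IRE1, went from 13.27 to 13.32 to 12.30 to 12.40 (-0.95 ± 0.06, adjusted p = 2.02e-08). The co-chaperone Dnajc3 fell by 1.39 ± 0.14, adjusted p = 1.79e-06 and the co-chaperone Dnajc10 fell by 1.38 ± 0.13, adjusted p = 8.69e-07. Derl3, which helps pull misfolded proteins out of the ER, was at 12.10, 12.26 and 12.14 on vehicle and 9.29, 10.74, 9.71, 9.91 and 10.12 on finasteride. It was lower in every finasteride library, least in library 2, and fell by 2.21 ± 0.26, adjusted p = 1.01e-05. Creld2, a disulfide isomerase-like ER protein, was at 12.83, 13.10 and 13.00 on vehicle and 10.43, 12.03, 10.81, 11.05 and 11.40 on finasteride, with the same order of libraries (-1.83 ± 0.30, adjusted p = 1.61e-04). Hspa5, the chaperone BiP, was at 15.36, 15.76 and 15.58 and 14.09, 14.96, 14.38, 14.46 and 14.84, with no overlap (-1.02 ± 0.23, adjusted p = 0.00185; over 11 libraries -0.93, adjusted p = 0.0889). The list's summed level was 18.77 to 19.02 on vehicle and 17.84 to 18.40 on finasteride, and in library 2 alone 0 members rose and 13 fell.

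Many ER folding genes carry an ER stress element, the 19-base motif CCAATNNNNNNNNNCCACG, read on either strand, at which ATF6 and NF-Y bind. The 250 bases before the starts of Creld2 (GRCm38.p6, chr15:88819396-88819645, plus strand), Derl3 (chr10:75893148-75893397, plus strand) and Hspa5 (chr2:34771840-34772089, plus strand) are shown from RefSeq, since these genes fell and hold a full match, in capitals. In Creld2 and Derl3 the match is on the minus strand and so reads as its reverse complement.
Creld2: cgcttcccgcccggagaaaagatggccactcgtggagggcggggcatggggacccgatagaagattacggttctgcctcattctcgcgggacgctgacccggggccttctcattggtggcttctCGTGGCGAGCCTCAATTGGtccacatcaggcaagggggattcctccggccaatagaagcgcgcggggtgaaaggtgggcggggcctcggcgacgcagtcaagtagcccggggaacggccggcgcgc
Derl3: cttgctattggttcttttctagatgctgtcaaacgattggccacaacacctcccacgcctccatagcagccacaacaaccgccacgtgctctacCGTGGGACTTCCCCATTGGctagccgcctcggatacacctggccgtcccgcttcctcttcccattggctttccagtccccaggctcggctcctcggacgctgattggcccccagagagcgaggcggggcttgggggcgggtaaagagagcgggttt
Hspa5: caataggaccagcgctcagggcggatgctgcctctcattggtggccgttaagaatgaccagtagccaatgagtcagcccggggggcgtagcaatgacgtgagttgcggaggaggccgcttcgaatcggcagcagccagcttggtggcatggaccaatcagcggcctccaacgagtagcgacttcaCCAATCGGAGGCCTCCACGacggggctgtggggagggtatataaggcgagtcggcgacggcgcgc
A further 6 genes of the list held a match, each written here in the direction of the motif, with the fixed letters in capitals.
Calr: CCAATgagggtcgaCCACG
Canx: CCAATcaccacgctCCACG
Dnajc3: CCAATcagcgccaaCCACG
Hsp90b1: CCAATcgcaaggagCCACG
Pdia6: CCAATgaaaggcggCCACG
Syvn1: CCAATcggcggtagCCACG
Hsp90b1 held another, 89 to 107 bases before its start. Of the 25 ER folding genes with a promoter entry 9 held the element (36%), against 17 of 11315 tested genes (0.15%).

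All 9 genes with the element fell, with a median of -0.917, and 12 of the 16 without it fell, with a median of -0.555. Over all 17 genes with the element, which include these 9, 11 fell and 3 rose. The calls of Calr, Hsp90b1, Hspa5, Pdia6 and Syvn1 were lost over 11 libraries. Beside the genes above, Hsp90b1, the chaperone GRP94, was at 14.37 to 14.70 on vehicle and 13.29 to 13.91 on finasteride (-0.92 ± 0.18, adjusted p = 8.84e-04; over 11 libraries adjusted p = 0.0537). Pdia6, a disulfide isomerase, changed by -0.83 ± 0.23, adjusted p = 0.00699 (over 11 libraries adjusted p = 0.155), and Canx, the lectin chaperone calnexin, by -0.42 ± 0.08, adjusted p = 4.94e-04. Canx did not pass after quantile normalization. Calr, calreticulin, was at 15.55, 15.91 and 15.75 on vehicle and 14.55, 15.66, 14.91, 15.01 and 15.37 on finasteride. Library 2 lay inside the vehicle range and the other 4 below it (-0.64 ± 0.22, adjusted p = 0.026), and the call was lost over 11 libraries (adjusted p = 0.288), after quantile normalization, and without vehicle library 2 (-0.55, adjusted p = 0.105), vehicle library 3 (0.0714) or finasteride libraries 1 (0.056) or 3 (0.0542). Syvn1, the ubiquitin ligase of ER degradation, was at 11.97 to 11.99 and 11.07 to 11.35 (-0.82 ± 0.27, adjusted p = 0.02; over 11 libraries adjusted p = 0.184, and 0.0521 to 0.0565 without any 1 vehicle library).

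**Figure D3:**
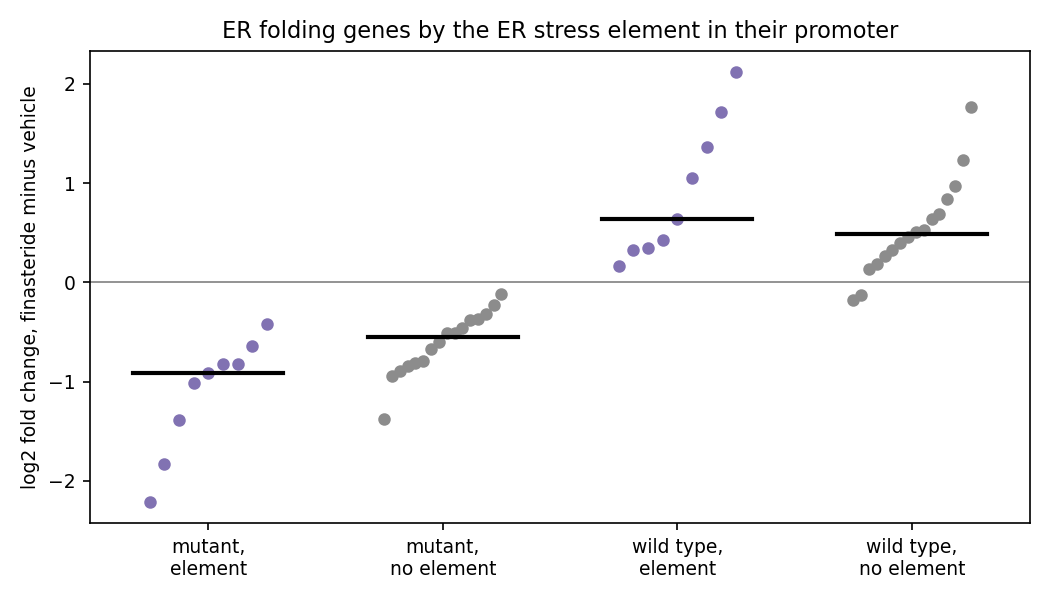
Log2 fold change of finasteride over vehicle (y axis) of the 25 ER folding genes with a promoter entry, in mutant and wild-type prostate, split by whether the promoter holds the ER stress element (9 genes, purple) or not (16, grey); points are ordered from low to high and lines are medians. In the mutant all 9 genes with the element lie below 0.

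The integrated stress response, in which ATF4 drives amino acid supply and transfer RNA charging, fell too. In that list 3 of 28 tested members rose and 17 fell (median log2 fold change -0.40, over 11 libraries 0 and 7). Asns, asparagine synthetase, was at 11.11, 11.32 and 11.28 on vehicle and 10.30, 10.01, 10.32, 10.24 and 10.23 on finasteride. All 5 finasteride libraries were lower, library 2 most (-1.02 ± 0.11, adjusted p = 6.05e-06). Gars, the synthetase for glycine transfer RNA, fell by 1.03 ± 0.11, adjusted p = 4.16e-06, Cars, that for cysteine transfer RNA, fell by 0.85 ± 0.07, adjusted p = 6.24e-07, and Slc7a5, an amino acid transporter, fell by 0.97 ± 0.12, adjusted p = 1.01e-05. Ddit3, the factor CHOP, overlapped between the groups at 8.25 to 8.36 and 8.09 to 8.29 (-0.16 ± 0.34, adjusted p = 0.732). Cytosolic heat shock genes were mostly outside the threshold, 3 of 24 rising and 4 falling (over 11 libraries 1 and 1). Hspb8, a small heat shock protein, rose by 1.48 ± 0.10, adjusted p = 4.20e-08, Hsf2 fell by 0.71 ± 0.09, adjusted p = 2.11e-05, and Hspa1a, the inducible HSP70, overlapped (0.29 ± 0.63, adjusted p = 0.732). Of immediate early genes 15 of 31 tested members rose and 3 fell (median log2 fold change 0.33, over 11 libraries 6 and 1). Cyr61, a matricellular protein, rose from 6.29 to 6.70 to 7.56 to 8.07 (1.35 ± 0.13, adjusted p = 9.90e-07), Klf2 by 1.10 ± 0.18, adjusted p = 1.76e-04 and Dusp6, which dampens ERK, by 0.86 ± 0.12, adjusted p = 5.81e-05.

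**Figure D4:**
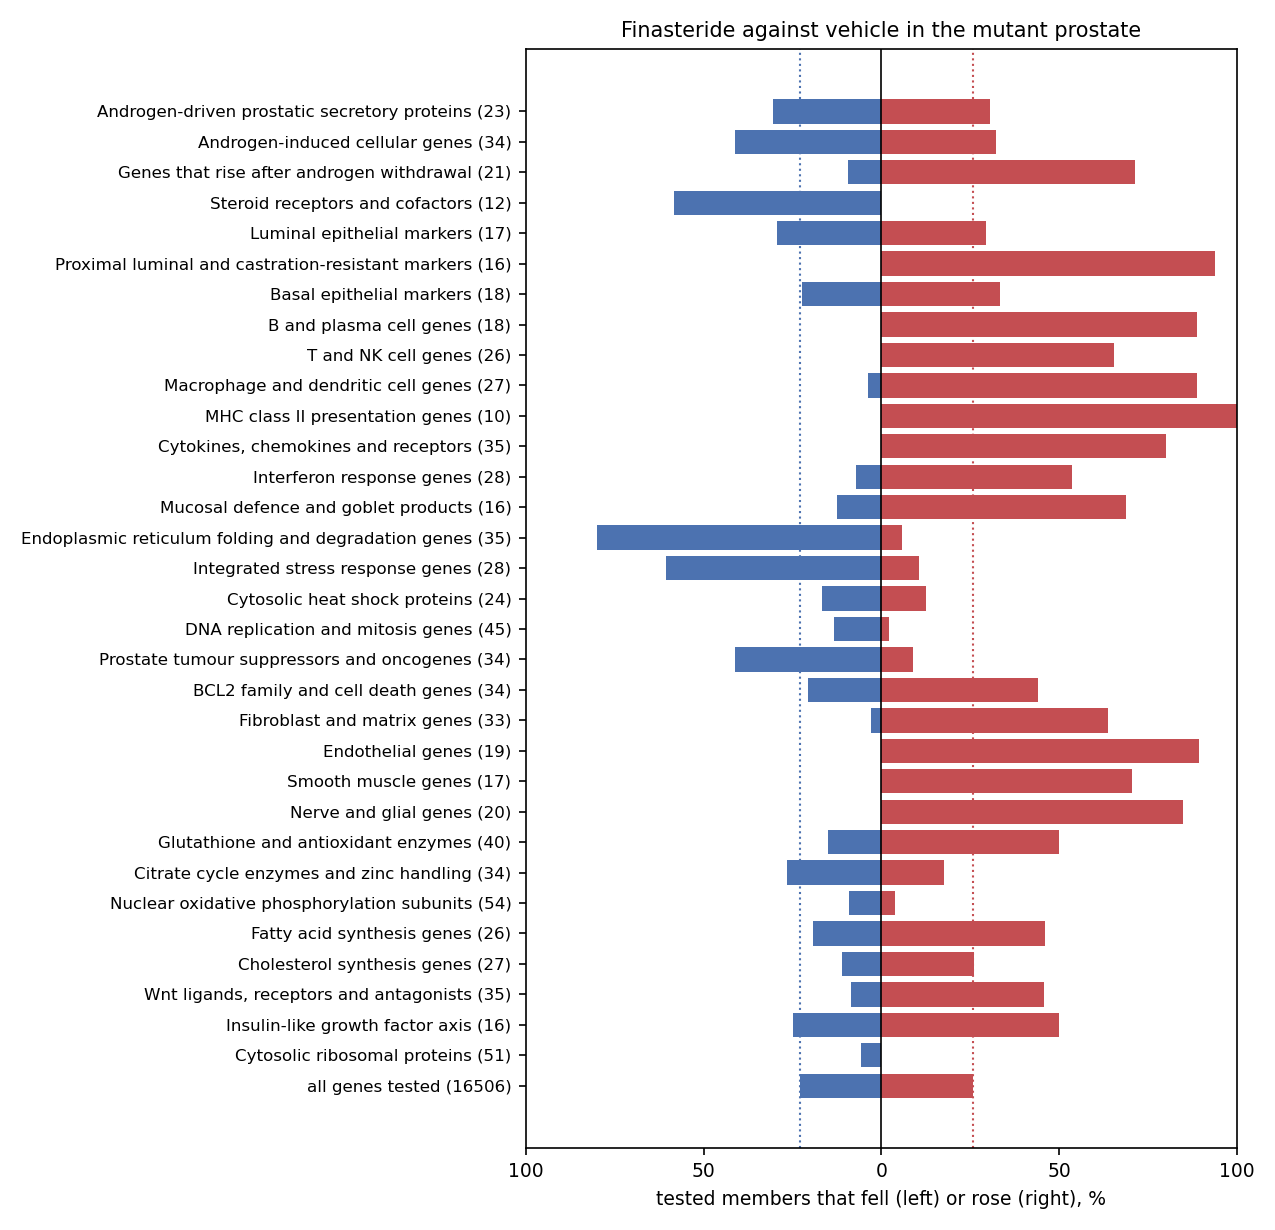
For 32 gene lists and all genes tested (y axis, with the number of tested members), the bar to the right is the percentage of members that rose on finasteride in the mutant and the bar to the left the percentage that fell; dotted lines mark all genes, 25.7% and 22.8%. Immune, proximal luminal, endothelial and nerve lists reach far to the right, and ER folding and integrated stress lists to the left.

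Few proliferation genes passed the test. Of 45 DNA replication and mitosis genes 1 rose and 6 fell, with a median of -0.16, 0 and 2 over 11 libraries, and 0 and 21 after quantile normalization. Top2a, topoisomerase of dividing cells, was at 8.86, 8.91 and 8.92 on vehicle and 7.90, 8.05, 8.02, 7.85 and 8.12 on finasteride, without overlap (-0.91 ± 0.16, adjusted p = 2.51e-04), and E2f2 fell by 0.98 ± 0.17, adjusted p = 3.20e-04. Cdk1, the mitotic kinase, was at 7.11 to 7.42 and 6.51 to 6.67, a change of -0.64 ± 0.21, adjusted p = 0.0229 that was lost over 11 libraries (adjusted p = 0.158) and without vehicle library 1 (-0.55, adjusted p = 0.0959) or 2 (0.0531). Of cell cycle inhibitors and p53 targets, a mixed list, 8 of 25 tested members rose and 5 fell (median log2 fold change 0.06, over 11 libraries 6 and 2). Cdkn1a, the inhibitor p21, was at 7.85, 7.77 and 8.06 on vehicle and 8.41, 8.72, 8.45, 8.57 and 8.44 on finasteride and rose by 0.63 ± 0.09, adjusted p = 5.42e-05. Gadd45b rose by 1.38 ± 0.11, adjusted p = 2.85e-07 and Ccnd2, a D-type cyclin, by 0.83 ± 0.10, adjusted p = 1.51e-05, while Rbl2, the pocket protein p130, fell by 0.75 ± 0.08, adjusted p = 3.22e-06. Of BCL2 family and cell death genes, again mixed, 15 of 34 tested members rose and 7 fell (median log2 fold change 0.12, over 11 libraries 2 and 2). Apaf1, the apoptosome scaffold, fell by 1.09 ± 0.11, adjusted p = 1.58e-06 and Casp1, the inflammasome caspase, rose by 1.48 ± 0.18, adjusted p = 1.01e-05.

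Prostate tumour suppressors and oncogenes leaned downward, 3 of 34 tested rising and 14 falling (median -0.27, over 11 libraries 2 and 8). Braf fell by 0.90 ± 0.12, adjusted p = 2.42e-05, Smad4 fell by 0.74 ± 0.07, adjusted p = 1.89e-06, Spop, a substrate adaptor of ubiquitin ligase, fell by 0.42 ± 0.06, adjusted p = 7.43e-05, and Erbb3 fell by 0.42 ± 0.06, adjusted p = 2.97e-05. Growth factor genes moved in both directions. In the insulin-like growth factor axis 8 of 16 tested members rose and 4 fell (median log2 fold change 0.70, over 11 libraries 6 and 2). Igf1, a stromal growth factor, was at 8.16, 8.31 and 7.96 on vehicle and 9.65, 8.80, 9.60, 9.42 and 9.51 on finasteride, library 2 lowest of the latter but above all of the former (1.25 ± 0.19, adjusted p = 6.66e-05). The binding proteins Igfbp2 and Igfbp4 rose by 1.27 ± 0.16, adjusted p = 2.01e-05 and 1.28 ± 0.11, adjusted p = 3.78e-07, and Irs1, the receptor's adaptor, fell from 10.06 to 10.11 to 8.30 to 8.75 (-1.58 ± 0.14, adjusted p = 6.97e-07). Of Wnt ligands, receptors and antagonists 16 of 35 tested members rose and 3 fell (median log2 fold change 0.35, over 11 libraries 7 and 0). Wnt4 was at 7.99, 7.63 and 7.70 on vehicle and 10.40, 9.72, 10.28, 10.27 and 9.92 on finasteride, all 5 high (2.35 ± 0.18, adjusted p = 1.33e-07), and the antagonist Sfrp1 rose by 1.02 ± 0.13, adjusted p = 2.28e-05. Of TGF-beta and BMP genes, also mixed, 9 of 29 tested members rose and 9 fell (median log2 fold change 0.09, over 11 libraries 3 and 5). The ligand Tgfb1 rose by 1.04 ± 0.14, adjusted p = 2.73e-05, Bmp7 fell by 1.02 ± 0.13, adjusted p = 2.11e-05, and Fst, which traps activins, rose by 1.20 ± 0.11, adjusted p = 1.05e-06. Prlr, the prolactin receptor, fell from 13.20 to 13.27 to 12.09 to 12.52 (-0.89 ± 0.13, adjusted p = 6.11e-05), and Socs3, a feedback inhibitor of STAT signalling, rose by 1.40 ± 0.19, adjusted p = 3.25e-05.

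Stromal and vascular genes rose. Of fibroblast and matrix genes 21 of 33 tested members rose and 1 fell (median log2 fold change 0.64, over 11 libraries 11 and 0). Vim, the mesenchymal filament vimentin, was at 10.21, 10.11 and 10.13 on vehicle and 11.49, 11.48, 11.43, 11.47 and 11.38 on finasteride. The finasteride libraries were evenly high, library 2 included (1.30 ± 0.12, adjusted p = 1.24e-06). Postn and Fn1, matrix proteins, rose by 1.12 ± 0.09, adjusted p = 3.89e-07 and 1.10 ± 0.14, adjusted p = 2.29e-05, and S100a4 by 1.35 ± 0.16, adjusted p = 1.04e-05. Dcn, the proteoglycan decorin, was at 12.23 to 12.39 on vehicle and 12.54 to 13.30 on finasteride, library 2 lowest (0.78 ± 0.16, adjusted p = 0.00103; over 11 libraries adjusted p = 0.0639). Matrix metalloproteases, which are not all stromal, rose as well. Mmp7, which is also on the list of androgen-driven secretory proteins, went from 10.54 to 11.01 to 12.01 to 13.50 (1.96 ± 0.25, adjusted p = 1.94e-05). Mmp9 went from 5.46 to 6.21 to 7.16 to 8.64 (2.07 ± 0.30, adjusted p = 5.22e-05), and the inhibitor Timp2 rose too (1.19 ± 0.11, adjusted p = 1.37e-06). Of endothelial genes 17 of 19 tested members rose and 0 fell (median log2 fold change 0.97, over 11 libraries 13 and 0). Pecam1, the endothelial adhesion protein CD31, was at 8.88, 8.73 and 8.78 on vehicle and 9.93, 9.52, 9.89, 9.69 and 9.64 on finasteride, with no overlap (0.94 ± 0.10, adjusted p = 3.87e-06), and Cldn5, a tight junction protein of vessels, rose by 1.49 ± 0.19, adjusted p = 1.75e-05. The summed levels of both lists were lowest in library 2 among the finasteride libraries. For fibroblast genes the sum was 15.44 there, against 15.48 to 15.54 in the others and 14.81 to 14.96 on vehicle. For endothelial genes it was 12.43, against 12.54 to 12.87 and 11.81 to 11.90. In library 2 alone the median changes were 0.37 and 0.69.

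Muscle, fat, nerve and neuroendocrine genes were also uneven over the finasteride libraries. Of smooth muscle genes 12 of 17 tested members rose and 0 fell (median log2 fold change 0.63, over 11 libraries 1 and 0). Myh11, its myosin, was at 14.50, 14.30 and 14.37 on vehicle and 15.45, 14.50, 15.39, 15.16 and 14.90 on finasteride, library 2 on the upper edge of vehicle (0.69 ± 0.21, adjusted p = 0.0123; over 11 libraries adjusted p = 0.215, and without vehicle library 2 0.65, adjusted p = 0.0504). Acta2, smooth muscle actin, changed by 0.74 ± 0.15, adjusted p = 0.00115 (over 11 libraries adjusted p = 0.0677). Of striated muscle genes 7 of 13 tested members rose and 0 fell (median log2 fold change 1.11, over 11 libraries 4 and 0), with Mb, myoglobin, from 3.24 to 3.56 to 6.12 to 6.55 (2.92 ± 0.40, adjusted p = 3.50e-05). Of adipocyte genes 5 of 13 tested members rose and 1 fell (median log2 fold change 1.495, over 11 libraries 3 and 0). Lep, leptin, was at 4.15, 4.32 and 4.23 on vehicle and 6.25, 5.26, 6.10, 5.81 and 5.95 on finasteride (1.64 ± 0.33, adjusted p = 9.52e-04), and Pparg, the master regulator of fat cells, rose by 1.71 ± 0.31, adjusted p = 3.54e-04. Of nerve and glial genes 17 of 20 tested members rose and 0 fell (median log2 fold change 2.18, over 11 libraries 3 and 0). Uchl1, a neuronal ubiquitin hydrolase, was at 6.48, 5.46 and 6.13 on vehicle and 9.71, 7.58, 9.38, 9.39 and 8.65 on finasteride, library 2 again the lowest on finasteride (2.92 ± 0.55, adjusted p = 5.40e-04). In library 2 alone 0 of the 20 nerve genes passed, with a median of 0.38. Of neuroendocrine genes 10 of 12 tested members rose and 0 fell (median log2 fold change 2.02, over 11 libraries 2 and 0), and 0 passed in library 2 alone. Chga, chromogranin A, was at 4.20 to 4.69 on vehicle and 5.35 to 6.74 on finasteride (1.801 ± 0.35, adjusted p = 6.56e-04; over 11 libraries adjusted p = 0.0557). The summed levels of smooth muscle, nerve and neuroendocrine genes were lowest in finasteride library 2 among the 5, as was that of seminal vesicle genes. In the same library those of striated muscle genes (12.58, against 12.14 to 12.32 in the other 4) and of adipocyte genes (13.06, against 12.79 to 12.87) were highest. With the summed seminal vesicle level as a covariate 16 of 20 nerve genes (median 2.25), 10 of 12 neuroendocrine genes (median 2.18) and 11 of 17 smooth muscle genes (median 0.51) rose. In wild type the seminal vesicle and nerve sums did not move together. They were 21.76 and 11.65 in wild-type vehicle library 1, and 10.46 and 13.55 in wild-type vehicle library 2. The covariate therefore need not capture nerve RNA, and nothing is read from these counts.

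Metabolic gene lists are set beside all tested genes, of which 25.7% rose and 22.8% fell (11% and 9.25% over 11 libraries). Of glutathione and antioxidant enzymes 20 of 40 tested members rose and 6 fell (median log2 fold change 0.51, over 11 libraries 16 and 2). Gsta4, which detoxifies lipid aldehydes, was at 7.81, 7.87 and 7.99 on vehicle and 10.56, 10.25, 10.54, 10.48 and 10.41 on finasteride. All 5 finasteride libraries were high and close together, a rise of 2.56 ± 0.14, adjusted p = 5.89e-09, or 5.88-fold. Gsta3, a related transferase, rose by 2.45 ± 0.18, adjusted p = 1.11e-07, Gpx2, an epithelial glutathione peroxidase, by 2.57 ± 0.22, adjusted p = 5.16e-07 and Mgst1 by 1.95 ± 0.14, adjusted p = 8.98e-08. The zinc-binding metallothioneins went the other way. Mt1 was at 12.96, 13.39 and 13.24 on vehicle and 12.26, 12.65, 12.17, 12.39 and 12.16 on finasteride (-0.87 ± 0.14, adjusted p = 1.30e-04), Mt2 fell by 0.73 ± 0.12, adjusted p = 1.62e-04 and Mt3 fell by 2.77 ± 0.50, adjusted p = 3.47e-04. Of the mixed list of citrate cycle and zinc handling genes 6 of 34 tested members rose and 9 fell (median log2 fold change -0.10, over 11 libraries 1 and 4), Idh1 falling by 0.98 ± 0.14, adjusted p = 4.60e-05 and Idh3a rising by 0.55 ± 0.07, adjusted p = 2.51e-05. Of fatty acid synthesis genes 12 of 26 tested members rose and 5 fell (median log2 fold change 0.29, over 11 libraries 3 and 2). Scd1, the stearoyl-CoA desaturase, was at 12.56 to 12.64 on vehicle and 13.26 to 13.54 on finasteride (0.80 ± 0.07, adjusted p = 1.03e-06), and Dgat2, the last step of triglyceride synthesis, rose by 1.39 ± 0.22, adjusted p = 1.42e-04. Of cholesterol synthesis genes 7 of 27 tested members rose and 3 fell (median log2 fold change -0.03, over 11 libraries 3 and 1). The share of cholesterol genes that rose (25.9%) was near that of all tested genes. So were both shares of the fatty acid list over 11 libraries, and nothing is read from these counts. Of polyamine genes 3 of 17 tested members rose and 3 fell (median log2 fold change -0.02, over 11 libraries 2 and 1), with Azin1, which protects ornithine decarboxylase, falling by 0.89 ± 0.16, adjusted p = 2.81e-04. Oxidative phosphorylation subunits, a mixed list, and ribosomal proteins mostly did not pass, 2 rising and 5 falling of 54, and 0 and 3 of 51. In library 2 alone 11 of the 54 subunits rose and 0 fell. Of 14 genes used by nearly all cells, again mixed, 3 rose and 2 fell.

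The response of the mutant was then set beside that of the wild type, which shares no library with it. In wild type 6619 genes passed (40.1%), 3034 higher (18.4%) and 3585 lower (21.7%), and 1437 over 11 libraries (8.71%). The difference between the responses, tested as the interaction of drug and genotype, passed for 9339 genes (56.6%), 4858 with a higher change in the mutant (29.4%) and 4481 with a lower one (27.1%), and for 4843 over 11 libraries (29.3%). Of 3740 genes called in both genotypes (46.8% of mutant and 56.5% of wild-type calls), 3310 went in opposite directions (88.5%), 2002 rising in the mutant and falling in wild type and 1308 the reverse. Over 11 libraries 560 of 599 genes called in both were opposite (93.5%). Across the tested genes, which are not independent of each other, the 2 sets of fold changes had a Pearson r of -0.555 and a Spearman rho of -0.498. Markers of other tissues moved in wild type too. The summed seminal vesicle level there was 21.76, 10.46 and 20.45 on vehicle and 14.35, 11.30, 9.70, 9.65 and 9.91 on finasteride, and that of nerve genes 11.65, 13.55 and 12.97 on vehicle and 11.51, 11.19, 11.12, 11.09 and 11.14 on finasteride. For the former vehicle libraries 1 and 3 were high, and for the latter vehicle libraries 2 and 3, with library 1 just above finasteride. The summed epididymal level was 15.56 in wild-type finasteride library 2 and at most 9.17 in the other 7 wild-type libraries. With the summed seminal vesicle level as a covariate the interaction passed for 5998 genes.

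Genes of several of the groups above differed in response between the genotypes. Pbsn, at -4.61 in the mutant, changed by -0.22 ± 0.22, adjusted p = 0.448 in wild type and did not pass there, and the difference of -4.39 ± 0.32 did (adjusted p = 8.78e-08). Tgm4 fell in the mutant and was at 0.91 ± 0.33 in wild type, where it did not pass over 11 libraries (adjusted p = 0.289; difference -3.62 ± 0.46, adjusted p = 1.56e-05). Sord fell in the mutant and rose in wild type (1.45 ± 0.14; difference -3.13 ± 0.20, adjusted p = 3.09e-08). Fkbp5 rose in the mutant and fell in wild type (-1.70 ± 0.30; difference 3.24 ± 0.42, adjusted p = 1.72e-05), and so did Clu (-1.58 ± 0.16; difference 3.03 ± 0.23, adjusted p = 1.23e-07) and Srd5a2 (-1.33 ± 0.20; difference 2.17 ± 0.28, adjusted p = 1.76e-05). Cdkn1a rose in both, by 0.63 and 0.56, and the difference did not pass (0.06 ± 0.13, adjusted p = 0.691). Proximal luminal genes, of which 15 rose in the mutant, had 1 rising and 14 falling in wild type (median -1.20, over 11 libraries 1 and 3). Psca was at -1.45 ± 0.39 there (difference 4.82 ± 0.56, adjusted p = 5.79e-06) and Krt7 at -1.16 ± 0.24 (difference 3.71 ± 0.34, adjusted p = 8.05e-07), and over 11 libraries neither wild-type change passed (adjusted p = 0.0745 and 0.0511).

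Immune and stress genes also included opposite changes. In wild type the B and plasma cell list had 0 risen and 8 fallen members (over 11 libraries 0 and 3), and Ighm changed by -2.09 ± 0.25 there (difference 8.34 ± 0.36, adjusted p = 8.85e-10). Cxcl13 fell by 2.22 ± 0.20 (difference 4.88 ± 0.28, adjusted p = 9.12e-09) and Pigr changed by -2.41 ± 0.60 (over 11 libraries adjusted p = 0.0916; difference 8.32 ± 0.84, adjusted p = 1.81e-06). ER folding genes, of which 28 fell in the mutant, had 20 rising and 2 falling in wild type (median 0.42, over 11 libraries 7 and 0), and integrated stress genes 24 and 1 of 28 (median 0.84, over 11 libraries 17 and 0). Derl3 changed by 1.37 ± 0.26 in wild type (difference -3.58 ± 0.37, adjusted p = 2.38e-06), Hspa5 by 1.05 ± 0.23 (difference -2.06 ± 0.32, adjusted p = 8.12e-05) and Asns by 0.56 ± 0.11 (difference -1.57 ± 0.16, adjusted p = 2.10e-06), and over 11 libraries these 3 wild-type changes did not pass (adjusted p = 0.0529, 0.0764 and 0.0675). Ddit3 and Hspa1a, which did not pass in the mutant, rose by 2.75 ± 0.34 and 3.44 ± 0.63 in wild type (differences -2.90 ± 0.49, adjusted p = 1.50e-04 and -3.15 ± 0.89, adjusted p = 0.00744, the latter 0.103 over 11 libraries). Gsta4 was opposite too (-1.06 ± 0.14; difference 3.62 ± 0.20, adjusted p = 8.67e-09), as were Acsl3 (1.75 ± 0.24; difference -3.94 ± 0.34, adjusted p = 4.01e-07) and Wnt4 (-1.29 ± 0.18; difference 3.64 ± 0.25, adjusted p = 5.48e-08).

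**Figure D5:**
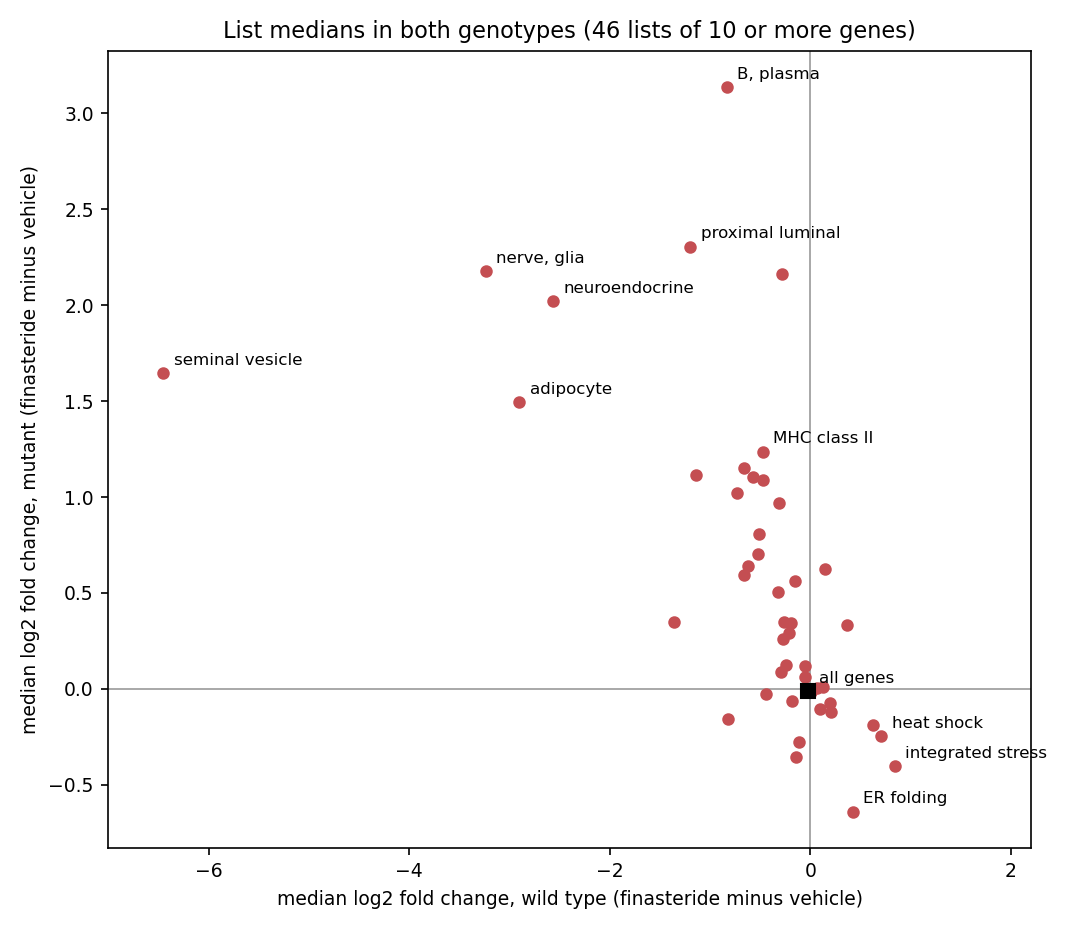
Each point is the median log2 fold change of finasteride over vehicle of 1 gene list in wild type (x axis) and mutant (y axis), for the 46 lists with at least 10 tested genes; the square is the median of all genes tested. B and plasma, proximal luminal and nerve lists lie at the upper left, and ER folding, integrated stress and heat shock lists at the lower right.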

How the data were processed

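Poly-A RNA of mouse prostate was sequenced in 16 samples, and groups came from the labels. CASAVA 1.8.2, TopHat and Cufflinks, DESeq and DESeq2, and the build mm9 are named in the submitters' processing notes, with no word on which of them produced the table. The authors deposited 1 normalized expression value per gene and library on a log2 scale, with the base inferred from the totals. The mutated gene and a few others are not reported here.

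The deposited log2 values of the 16506 tested genes (mean 3.32 or more) were fitted with 1 mean per group by limma 3.58.1 in R 4.3.3, with a trend in the variance. The threshold was an adjusted p (Benjamini and Hochberg) of 0.05. All 4 groups share 1 estimate of the spread. The script was tested on simulated data. A library was treated as a mixture when a weighted mean of a pair of its group, both weights over 0.2, left a residual SD under 0.1 over genes of at least 8 in log2.

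The comparison, its gene lists and its members were chosen with earlier results of these data known. Genes were named by a rule: the 3 reductases, Pbsn and Fkbp5; the 12 highest and 12 lowest changes in the mutant that passed over 16 and 11 libraries without overlap, with a mean of at least 50 out of log2; the 8 highest and 8 lowest interactions; and up to 4 members of each list with the lowest p. Only a subset is printed. Msmb, Creld2, Derl3, Hspa5, Calr, Canx, Hsp90b1, Pdia6, Syvn1, Svs2, Hspa1a and Ddit3 fall outside it and were chosen after their values were seen, as were the fits on 10 libraries, on finasteride library 2 alone and with seminal vesicle RNA as a covariate. Promoters are the 250 bases before RefSeq starts on GRCm38.p6, matched by symbol for 11315 tested genes (68.6%); this is not the authors' build.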

Additional observations from a re-analysis of the deposited data

Results flagged for a closer look

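In 27 of 224 genes and lists examined over the 5 finasteride libraries of the mutant (12.1%), 1 library stood far from the others by Dixon's criterion. Chance meets this criterion in about 1 of 20 groups of independent values. That rate does not hold here, because finasteride libraries 3 and 4 were close to weighted means of others of their group. The genes are also related and partly chosen from these data, so nothing is read from the share. The library that stood apart was finasteride library 2 in 25 of the 27, low in 21 and high in 4. The summed level of seminal vesicle genes was 16.71 there and that of epididymal genes 9.10. Genes of those organs and of their ducts were low in the same library, with Svs2 at 11.52, Svs5 at 13.04, Crisp1 at 4.54, Akr1b7 at 5.39, Cldn2 at 2.62, Pax2 at 2.80, Pax8 at 2.22, Adam7 at 8.32 and Scgb2b20 at 7.05. Low in library 2 as well were Scgb2b20 at 7.05, Srd5a2 at 6.91, Sord at 10.78, Lct at 5.37, Asns at 10.01, Braf at 10.02, Erbb3 at 11.40, Igf1 at 8.81, Fst at 8.87, Dcn at 12.54 and Rpl24 at 8.74. High in library 2 were Krt7 at 10.07, Psmb9 at 8.87, Fn1 at 12.58 and Srm at 10.42. Finasteride library 5 was far above the others for Srd5a1, at 7.16, and Tpd52, at 12.41.

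The finasteride response differed between mutant and wild type, by the test of the interaction, for 46 of the 47 genes whose 2 responses were compared, beside 56.6% of all tested genes. Some of the 47 were chosen for the size of this difference or of the mutant response, so nothing is read from their count. Values that follow are the log2 response of the mutant minus that of the wild type. In the androgen axis it was 0.62 for Srd5a1, 2.17 for Srd5a2, -4.39 for Pbsn, 3.24 for Fkbp5, -3.62 for Tgm4, -3.17 for Gsdma, -3.13 for Sord, 3.49 for Sult1e1 and 3.03 for Clu. Genes with a much lower response in the mutant were Pnliprp1 (-7.42), Fut9 (-6.16), Mcoln3 (-5.13), C1rb (-5.97), Atp12a (-4.55), Glb1l3, a galactosidase-like enzyme (-5.17), Ren1, renin (-8.82), Olfm4, a secreted glycoprotein (-5.63), Mt3 (-5.27), Mt1 (-1.92) and Acsl3 (-3.94). The highest differences were those of Sbp (12.8), Scgb2b7 (12.6), Mug1 (12.5), Scgb2b20 (11.9), Spink5 (11.8), Adam7 (10.8) and Slc5a8 (9.54). For immune and proximal luminal genes they were 9.92 for Igkc, 8.34 for Ighm, 8.32 for Pigr, 4.88 for Cxcl13, 4.82 for Psca, 3.71 for Krt7 and 2.92 for Ly6a. Stress genes had -3.55 for Creld2, -3.58 for Derl3, -2.06 for Hspa5, -1.57 for Asns, -2.90 for Ddit3 and -3.15 for Hspa1a. Those left were 3.11 for Igf1, 3.64 for Wnt4, 4.54 for Lep, 6.19 for Uchl1, 3.62 for Gsta4 and 3.77 for Dgat2. Uchl1 follows the libraries with nerve and seminal vesicle RNA, and with the summed seminal vesicle level as a covariate its change in the mutant was 2.98. That covariate did not move with nerve RNA in wild type, so nothing is read from this value.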

How the results depend on the processing

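Fits with another pseudocount, variance trend, filter or moderation, or on only the groups compared, gave counts of called genes in the mutant within 1.5 times of 7996. Leaving out 1 library gave between 6358 genes (without vehicle library 2) and 8819 (without finasteride library 2) in the mutant, 4482 to 7546 in wild type and 8344 to 10116 for the interaction. Larger shifts came with fewer libraries. Over 11 libraries the counts were 3340 in the mutant, 1437 in wild type and 4843 for the interaction. Over 10 libraries, which also lack finasteride library 5, they were 2102 in the mutant and 3603 for the interaction. With finasteride library 2 as the only finasteride library of the mutant they were 4502 and 6175. With the summed seminal vesicle level as a covariate they were 7315 in the mutant and 5998 for the interaction. The fits on 10 libraries, on library 2 alone and with the covariate were chosen after seeing the data, and in the fit on library 2 alone that library is assumed to vary like the other groups.

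Of 218 genes followed through the settings 214 passed in the mutant. The call was lost for 32 over 11 libraries, 68 over 10 libraries, 59 in library 2 alone and 9 in at least 1 fit without 1 library. After quantile normalization 4 calls were lost (Calr, Canx, Cma1 and Csf3r), as were 4 with the covariate (Calr, Ren1, Srd5a1 and Syvn1), and none with either pseudocount or without the variance trend. Directions turned for Srd5a1 (-0.12) and Hspa1a (-0.079) after quantile normalization, for Srd5a3 (0.072), Svs2 (-0.75) and Svs5 (-1.95) in library 2 alone, and for Svs5 with the covariate (-0.68); the cause was not tested. Across genes the correlation of the responses of both genotypes lay between -0.555 and -0.519 under 4 other scalings and pseudocounts. Read depth is unknown, so no counting error can be given. No paired analysis was possible because the numbers in the titles run on over all samples and repeat in no other group.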

Other observations

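A few gene groups lie outside the account above. Urothelial markers were split, 1 of 6 tested rising and 2 falling over 16 libraries (1 and 1 over 11). Upk1b, a uroplakin, was at 13.29, 14.33 and 13.90 on vehicle and 12.59, 13.23, 12.76, 12.79 and 13.01 on finasteride in the mutant (-0.96 ± 0.21, adjusted p = 0.00161; over 11 libraries adjusted p = 0.0817). Upk3b, a uroplakin-like gene also known from mesothelium, was at 1.26, 5.49 and 5.05 and 7.38, 6.69, 7.31, 7.25 and 6.91, so that its rise of 3.18 ± 0.77, adjusted p = 0.00323 was 1.84 (adjusted p = 0.0157) without vehicle library 1, the lowest. Of STAT5 and prolactin signalling genes 8 of 16 tested members rose and 3 fell (median log2 fold change 0.35, over 11 libraries 6 and 1), with Bcl6, a target repressor, at 8.34 to 8.70 on vehicle and 9.20 to 9.45 on finasteride (0.80 ± 0.12, adjusted p = 6.64e-05). Of matrix metalloproteases and their inhibitors 10 of 16 tested members rose and 1 fell (median log2 fold change 0.81, over 11 libraries 6 and 1).

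Promoters of integrated stress genes were searched for TGATGNAAN, the composite site of CHOP and ATF4, on both strands. It was found in 7 of 26 genes with a promoter entry (26.9%) against 226 of 11315 tested genes (2%). Of these 7, among them Asns, Gars, Chac1 and Atf3, 1 rose and 5 fell on finasteride in the mutant, with a median of -0.98. Of the 19 without it 2 rose and 10 fell, with a median of -0.315. Among all 226 genes with the site 69 rose and 54 fell, so the fall was not shared by its carriers at large. Ren1, renin, was at 14.50, 13.61 and 14.07 on vehicle and spread widely on finasteride, at 6.73, 11.59, 9.04, 9.91 and 10.46. The groups did not overlap (-4.52 ± 1.47, adjusted p = 0.019; over 11 libraries adjusted p = 0.153), and the call was lost without vehicle library 1 (-4.30, adjusted p = 0.0614) or 3 (-4.51, adjusted p = 0.0528).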
